A study of Homo sapiens with 12 samples.

Results

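Transcripts of 8 genes that take apart glycosphingolipids in the lysosome were followed: acid ceramidase ASAH1, the hydrolases GLA, GLB1, HEXA, NEU1 and GALC, and the activator proteins encoded by PSAP and GM2A. The genes were chosen by symbol, and all 8 were found among the 20036 genes of the deposited table. HEXA stayed under the filter of 1 FPKM (reads scaled to the length of the gene model and to library size) in at least 3 libraries, so 7 of the 8 were among the 9959 genes tested. The cells were MV-4-11, an established acute myeloid leukemia line labelled as bone marrow derived and of WT genotype, and every group was this line. Over 48 h they received the vehicle DMSO, eliglustat (ELI), venetoclax (ABT, from its code name ABT-199) or both drugs (Comb), with 3 RNA-seq libraries a group. The sources used here give no doses. The labels do not tell whether the 3 libraries of a group had cultures of their own; the p-values cover only how far these libraries spread, which may be technical.

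Glycosphingolipids reach the lysosome with internalised membrane and are shortened there sugar by sugar from the outer end. Each step has its own acid hydrolase, and several need a small activator protein that lifts the lipid out of the membrane or presents it to the enzyme. The ceramide that remains is split by acid ceramidase into sphingosine and a fatty acid, and sphingosine leaves the lysosome for reuse or for conversion to sphingosine-1-phosphate. Eliglustat inhibits glucosylceramide synthase, encoded by UGCG, which starts glycosphingolipid synthesis from ceramide. Venetoclax binds the survival protein BCL2.

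Recovered library totals were 17259889 to 21082288 reads, and a library held 178 to 8463 reads of each of the 8 genes. In DMSO, ELI and ABT the libraries differed along GC content, by Spearman's rho across genes of a library's deviation from its group mean with GC. The library numbered 1 had a rho of -0.79, -0.70 and -0.70. The others of these 3 groups had 0.19 to 0.81, with DMSO replicate 2 the highest. In Comb rho was -0.29 to 0.26 (genes are not independent replicates). ASAH1 and GALC, with the lowest GC content of the 8 (42.1% and 41.7% of the longest coding transcript), were highest in that library in each of these 3 groups. GLB1, NEU1, PSAP and GM2A (48.4% to 55.6%) were lowest in it in each of the 3. GLA (49.2%) and HEXA (51.2%), within that range, were lowest in it in DMSO but highest in it in ELI. In ABT GLA was lowest in it and HEXA in the middle. Of 8 markers of the leukemia line 7 were tested, with FLT3 at 189 to 372 FPKM, LYZ at 53.7 to 118 and CD33 at 22.6 to 27.0. HOXA9 was at 11.0 to 17.8 and MEIS1 at 3.45 to 7.01. MPO and ITGAM lay near the filter, at 0.377 to 1.57 and 0.581 to 1.77, and CD68 was at most 0.0685. Of 12 monocyte and macrophage markers 2 were tested, CSF1R and TREM2, and CD14 was at most 0.502. Markers of T cells, erythroid cells, stroma and epithelium were under the filter. Of 3 megakaryocyte markers PPBP and PF4 were listed at 0 in every library, but ITGA2B was tested, at 1.10 to 2.03 FPKM. CD79A of B cells was at 0.296 to 1.81 FPKM.

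The 8 transcripts covered a wide range of levels, and the order of their levels changed under both drugs. By the authors' gene models the order in DMSO was PSAP, GLB1, GM2A, GLA, NEU1, GALC, ASAH1 and HEXA, from 76.2 ± 10.6 FPKM (SD, n = 3) for PSAP to 0.738 ± 0.0787 for HEXA. The DMSO libraries of GLB1 and GM2A overlapped in level, and so did those of GALC and ASAH1. In Comb ASAH1 stood at 26.7 ± 0.711 FPKM, behind PSAP at 131 ± 2.63 and GM2A at 27.2 ± 1.20, with the libraries of GM2A and ASAH1 overlapping. These positions depend on gene length: the model behind the ASAH1 value is 15378 bases, 5.06 times its longest coding transcript, against 1.09 times for PSAP. Per kilobase of that transcript, a scale chosen after seeing the data, ASAH1 was at 26.1 ± 5.12 in DMSO, behind PSAP, GLA and GLB1, and at 135 ± 3.59 in Comb, next to PSAP at 142 ± 2.85.

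**Figure D1:**
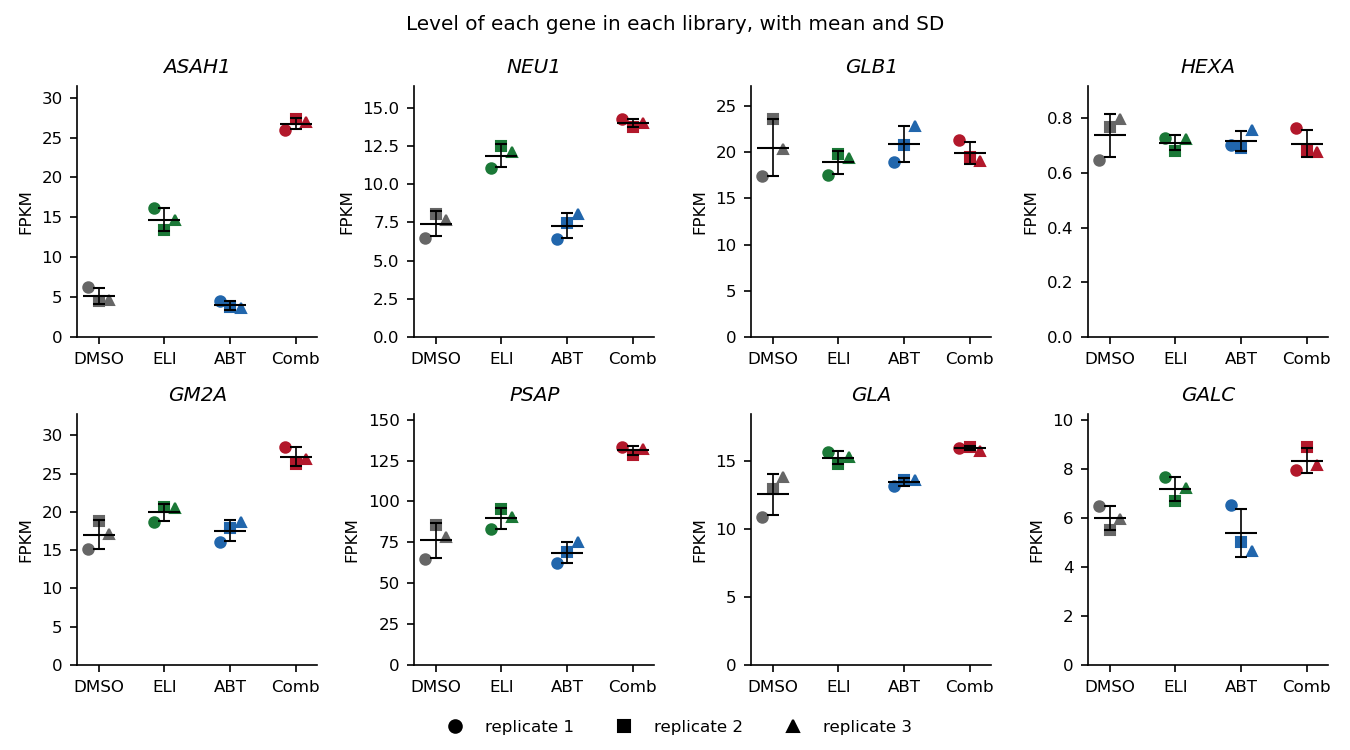
FPKM (linear axes from 0) of each of the 8 genes in the 12 libraries, with DMSO, ELI, ABT and Comb along the horizontal axis, marker shapes for replicate numbers, and a black bar with whiskers for the mean and SD of 3 libraries. ASAH1 goes from 5.17 in DMSO to 14.7 in ELI and 26.7 in Comb, PSAP and GM2A stand out in Comb, and GLB1 and HEXA overlap between all groups.

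Acid ceramidase had the largest change of the 8 genes. ASAH1 (ENSG00000104763, protein coding, chromosome 8, minus strand, 18055992 to 18084998 in GRCh38 with GENCODE 29) measured 6.33, 4.49 and 4.68 FPKM in DMSO replicates 1 to 3. It measured 16.2, 13.4 and 14.6 FPKM in ELI, 4.58, 3.72 and 3.63 in ABT, and 26.0, 27.4 and 26.9 in Comb. All ELI libraries were above all DMSO and ABT libraries, and all Comb libraries were above all ELI libraries, while those of ABT and DMSO overlapped. Differences between groups are on the log2(FPKM + 1) scale, where changes of weakly expressed genes come out too small, with limma p-values adjusted by Benjamini-Hochberg over all genes tested. Against DMSO, ASAH1 rose by 1.36 under eliglustat (SE 0.11, limma adjusted p = 6.2e-06) and by 2.18 under both drugs (SE 0.11, limma adjusted p = 2.9e-08). The rise under both drugs was the 8th largest of the 9959 genes on that log2 scale. The mean FPKM, without the added 1, was 2.85 times that of DMSO in ELI and 5.18 times in Comb. Against ABT, ASAH1 rose by 2.48 (limma adjusted p = 9.6e-09) when eliglustat was added, and ELI lay above ABT by 1.66 (limma adjusted p = 9.8e-07). Venetoclax on top of eliglustat raised it by a further 0.82 (SE 0.11, limma adjusted p = 0.00049), the 11th largest rise in that comparison. In bulk RNA, fewer cells of a type and less RNA per cell cannot be told apart.

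Venetoclax alone went with an ASAH1 difference of -0.30 (95% interval -0.55 to -0.05) that did not pass (limma adjusted p = 0.21, unadjusted p = 0.021). It passed in a blocked fit (replicate number as the block) of the 9 libraries without Comb (limma adjusted p = 0.020). That fit called 23.6% of all genes tested, against 0.151% in the reported fit. After removal of the GC and length trend the ASAH1 difference was -0.10 (limma adjusted p = 0.16). The eliglustat rise of ASAH1 kept its call in all 24 alternatives, between 1.17, with that trend removed, and 1.53.

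The activator genes PSAP and GM2A rose under both drugs together and stood above every other group there. PSAP (ENSG00000197746, chromosome 10, minus strand, 71816298 to 71851375) encodes prosaposin, the precursor cut into saposins A to D, which help GALC, GLA, ASAH1 and other enzymes act on their lipids. It measured 64.5, 85.4 and 78.5 FPKM with vehicle, 83.0, 95.6 and 90.5 with eliglustat, 62.2, 68.9 and 75.1 with venetoclax, and 134, 128 and 132 with both drugs. Every Comb library was above all others, and the ELI and DMSO libraries overlapped. From DMSO to Comb PSAP rose by 0.79 (SE 0.10, limma adjusted p = 5.5e-05). Its rise from ABT to Comb was 0.93 (limma adjusted p = 1.2e-05) and that from ELI to Comb 0.55 (limma adjusted p = 0.0040). Eliglustat alone lay above venetoclax alone by 0.38 (limma adjusted p = 0.0068), but above DMSO by 0.24, which did not pass (limma adjusted p = 0.079). That last difference passed with the replicate block (limma adjusted p = 0.027 in 12 libraries and 0.0071 in 9).

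GM2A (ENSG00000196743, chromosome 5, plus strand, 151212150 to 151270440) encodes the GM2 activator, which presents ganglioside GM2 to the enzyme of which HEXA encodes a subunit. Its FPKM was 15.1, 18.9 and 17.1 with vehicle, 18.7, 20.7 and 20.5 with eliglustat, 16.0, 17.8 and 18.7 with venetoclax, and 28.5, 26.2 and 26.9 with both drugs. The Comb libraries again formed the highest group, and those of DMSO, ELI and ABT overlapped. The rise of GM2A to Comb was 0.65 (SE 0.09, limma adjusted p = 7.2e-05) from DMSO, 0.61 (limma adjusted p = 9.3e-05) from ABT and 0.43 (limma adjusted p = 0.0068) from ELI. Its difference of 0.22 in ELI against DMSO did not pass (limma adjusted p = 0.062), and passed with the replicate block (0.034 in 12 libraries, 0.011 in 9). ELI lay 0.18 above ABT (limma adjusted p = 0.086, and 0.021 with the block in 9 libraries).

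NEU1 rose under eliglustat with and without venetoclax. It encodes the lysosomal sialidase, which removes terminal sialic acid and works in a complex with the protective protein cathepsin A (CTSA) and beta-galactosidase (GLB1). NEU1 (ENSG00000204386, chromosome 6, minus strand, 31857659 to 31862906) measured 6.50, 8.05 and 7.69 FPKM with vehicle, 11.0, 12.5 and 12.1 with eliglustat, 6.40, 7.47 and 8.03 with venetoclax, and 14.3, 13.7 and 14.0 with both drugs. The groups formed 3 steps, with DMSO and ABT overlapping at the bottom, ELI between, and Comb on top. Against DMSO, NEU1 rose by 0.62 under eliglustat (SE 0.09, limma adjusted p = 0.00039) and by 0.84 under both drugs (SE 0.09, limma adjusted p = 1.5e-05). Comb exceeded ABT by 0.86 (limma adjusted p = 1e-05), and ELI exceeded ABT by 0.64 (limma adjusted p = 0.00018). Comb exceeded ELI by 0.22 (95% interval 0.03 to 0.42), which did not pass (limma adjusted p = 0.17). CTSA, the partner of NEU1, went from 7.72 ± 0.892 FPKM in DMSO to 10.8 ± 0.589 in ELI and 14.7 ± 0.0747 in Comb, rises of 0.44 (limma adjusted p = 0.0033) and 0.86 (limma adjusted p = 1.2e-05). GLB1, the other partner, did not pass in any comparison.

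Promoter windows are shown for NEU1 and CTSA because both partners rose in ELI and in Comb and both windows hold CACGTG, the E-box core that TFEB and TFE3, factors of lysosomal genes, are known to bind. The windows run from 250 bases before to 50 bases after a RefSeq start in GRCh38.p14, at chr6:31862772-31863071 on the minus strand for NEU1 and chr20:45891085-45891384 on the plus strand for CTSA. They are written 5′ to 3′ on the gene's strand with CACGTG in capitals.
NEU1: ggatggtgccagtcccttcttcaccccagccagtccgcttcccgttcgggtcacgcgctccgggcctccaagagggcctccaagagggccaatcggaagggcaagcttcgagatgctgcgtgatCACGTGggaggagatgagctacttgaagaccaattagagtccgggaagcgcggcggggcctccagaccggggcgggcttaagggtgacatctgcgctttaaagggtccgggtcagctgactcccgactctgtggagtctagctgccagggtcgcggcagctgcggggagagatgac
CTSA: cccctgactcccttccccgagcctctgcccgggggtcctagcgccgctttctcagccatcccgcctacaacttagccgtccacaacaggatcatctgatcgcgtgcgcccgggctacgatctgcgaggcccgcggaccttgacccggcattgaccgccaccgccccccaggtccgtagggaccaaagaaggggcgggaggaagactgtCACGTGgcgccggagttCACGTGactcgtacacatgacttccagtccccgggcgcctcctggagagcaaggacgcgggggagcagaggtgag
NEU1 has 1 CACGTG, which begins 126 bases before the listed start. CTSA has 2, beginning 42 and 25 bases before it, and the nearer one lies within TCACGTGA, a core of the element known for lysosomal genes. CACGTG reads the same on both strands and was in the windows of 8.77% of 27305 genes, and TCACGTGA, which contains it, in 1.18%. Windows were at hand for 5 of the 8 genes, NEU1, GLA, GLB1, GM2A and GALC, and the last 4 hold neither motif. Those of UGCG and SCARB2, also searched, hold neither. GLA and UGCG, without either motif, also rose in ELI and in Comb. For GLB1 the window starts inside the span given by GENCODE 29, and for GM2A well inside it. A match describes these letters, not a bound site. NEU1 and CTSA were picked for both the rise and the motif, so finding both in them is no support for a link, which was not tested.

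GLA and GALC differed by less. GLA encodes alpha-galactosidase A, which removes the terminal galactose of globotriaosylceramide, the lipid stored in Fabry disease. GLA (ENSG00000102393, chromosome X, minus strand, 101397803 to 101408012) measured 10.9, 12.9 and 13.8 FPKM with vehicle, 15.6, 14.7 and 15.3 with eliglustat, 13.1, 13.6 and 13.6 with venetoclax, and 16.0, 16.0 and 15.7 with both drugs. Every ELI and Comb library was above every DMSO and ABT library. From DMSO, GLA rose by 0.27 under eliglustat (SE 0.08, limma adjusted p = 0.017) and by 0.33 under both drugs (SE 0.08, limma adjusted p = 0.0038), and from ABT to Comb by 0.23 (limma adjusted p = 0.019). The rise in ELI was 0.16 and did not pass without the 4 libraries numbered 1 (limma adjusted p = 0.058), nor did it pass without ELI replicate 1 (0.066) or ELI replicate 3 (0.054), or in the 6 libraries compared (0.10). The rise over ABT did not pass without Comb replicate 2 (limma adjusted p = 0.054) or with median-of-ratios scaling (0.077).

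GALC encodes galactosylceramidase, the enzyme lost in Krabbe disease. GALC (ENSG00000054983, chromosome 14, minus strand, 87837820 to 87993665) measured 6.49, 5.52 and 5.95 FPKM with vehicle, 7.65, 6.70 and 7.21 with eliglustat, 6.52, 5.03 and 4.67 with venetoclax, and 7.94, 8.92 and 8.16 with both drugs. Comb libraries were above all others, and the lowest ELI library was just above the highest of DMSO and ABT. GALC in Comb rose above DMSO by 0.42 (SE 0.10, limma adjusted p = 0.0051) and above ABT by 0.55 (limma adjusted p = 0.00060). Its difference of 0.23 in ELI against DMSO did not pass (limma adjusted p = 0.097), passed with the block in 9 libraries (0.027), and was 0.05 with the GC and length trend removed (0.48). After removal of that trend the Comb values were 0.25 (limma adjusted p = 0.0026) and 0.21 (limma adjusted p = 0.0070), and the higher level in ELI than in ABT, 0.36 (limma adjusted p = 0.0094), was 0.01 (limma adjusted p = 0.85).

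GLB1 passed in none of the 7 comparisons, and HEXA was too low to be tested in the reported fit. GLB1 encodes lysosomal beta-galactosidase, which removes the terminal galactose of ganglioside GM1. GLB1 (ENSG00000170266, chromosome 3, minus strand, 32996608 to 33097230, with 1.9% of its exon bases shared with ENSG00000188167 on the same strand) measured 17.5, 23.6 and 20.4 FPKM with vehicle, 17.5, 19.9 and 19.4 with eliglustat, 19.0, 20.8 and 22.9 with venetoclax, and 21.3, 19.5 and 19.1 with both drugs. Its groups overlapped throughout. GLB1 differed from DMSO by -0.10 in ELI (95% interval -0.33 to 0.12), 0.03 in ABT (-0.20 to 0.26) and -0.03 in Comb (-0.25 to 0.20). HEXA encodes the alpha subunit of hexosaminidase A, lost in Tay-Sachs disease. HEXA (ENSG00000213614, chromosome 15, minus strand, 72340919 to 72376476) measured 0.649 to 0.798 FPKM with vehicle, 0.680 to 0.729 with eliglustat, 0.690 to 0.758 with venetoclax and 0.675 to 0.764 with both drugs, from 178 to 257 reads a library. Its values are uncertain, since its gene model is 15893 bases long and 4.9% of its exon bases are shared with ENSG00000260729 on the same strand. In the fit without a filter HEXA differed from DMSO by -0.02, -0.02 and -0.03 in ELI, ABT and Comb (limma adjusted p = 0.79, 0.88 and 0.72).

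Over the genes together, eliglustat alone raised 3 of the 7 tested, ASAH1, NEU1 and GLA, and lowered none, where 16.4% of all genes tested rose and 19.8% fell. Their median difference was 0.24, against 0.01 over all genes tested. With the replicate block 5 of the 7 rose in 12 libraries, where 22.8% of all genes rose, and 6 of 7 in 9 libraries, where 27.2% did. Without the 4 libraries numbered 1, 5 rose where 29.9% of all genes did, and without DMSO replicate 2, 5 rose where 12.3% did. In the 6 libraries compared only 2 of the 7 rose, where 8.94% of all genes did. The count was also 2 without ELI replicate 1 (10.3% of all genes) and without ELI replicate 3 (11.0%). Venetoclax alone changed 0 of 7 by limma, where 0.151% of all genes were called, and the median difference was -0.02, as over all genes. An unadjusted p under 0.05 was given to 1 of the 7 by limma and to 1 by limma's voom on recovered reads, which also called 0.

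Both drugs together raised 6 of the 7 against DMSO, all but GLB1, where 25.7% of all genes rose and 25.8% fell. The median was 0.65, against 0.02 over all genes tested. The 3 Comb libraries lay above all DMSO libraries for the same 6 genes, as they did for 27.3% of all genes. Against ABT 6 of 7 rose, where 35.4% of all genes rose and 31.7% fell. With any library left out 5 to 6 did, where 30.2% to 38.6% of all genes rose. Comparisons with DMSO share its libraries, as those with Comb share theirs, so these counts are not independent of each other. Against ELI, ASAH1, PSAP and GM2A rose, 3 of 7 where 3.03% of all genes did, and these 3 were the members higher in Comb than in each of the other groups, as were 2.44% of all genes. ELI exceeded ABT in 4 of 7, where 33.2% of all genes did.

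**Figure D2:**
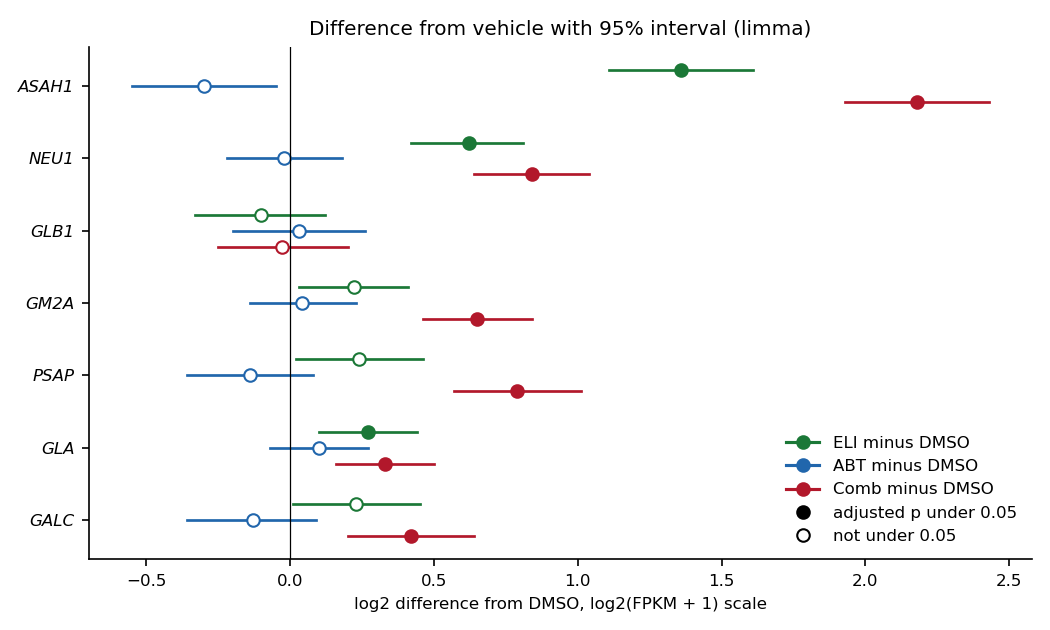
Differences of ELI (green), ABT (blue) and Comb (red) from DMSO on the log2(FPKM + 1) scale for the 7 genes tested, with limma 95% intervals as lines and filled points where the adjusted p was under 0.05. Comb points are filled for every gene but GLB1, with ASAH1 at 2.18, and all ABT points are open.

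Levels of some markers of other cell types are given here beside these genes. The summed level of the monocyte and macrophage markers was 14.6 to 19.5 FPKM with vehicle, 14.3 to 16.7 with eliglustat, 15.8 to 18.1 with venetoclax and 18.3 to 19.6 with both drugs, of which CSF1R alone made 11.6 to 17.1. TREM2, a receptor of macrophages, rose by 0.69 in Comb against DMSO (limma adjusted p = 0.00039), and CSF1R differed by -0.07 (limma adjusted p = 0.55). The other 10 markers were under the filter. CD79A of B cells was at 1.16 to 1.81 FPKM with vehicle, 0.539 to 0.848 with eliglustat, 0.925 to 1.39 with venetoclax and 0.296 to 0.576 with both drugs. It was lowest in Comb, and it passed the filter through the DMSO and ABT libraries. The part of these markers in the results was not tested.

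Whether eliglustat had the same effect with and without venetoclax was asked as an interaction, the difference Comb minus ABT less the difference ELI minus DMSO. ASAH1 and PSAP passed, 2 of 7 where 1.68% of all genes were higher. For ASAH1 the eliglustat difference was 2.48 with venetoclax and 1.36 without, an interaction of 1.12 (SE 0.16, limma adjusted p = 0.0012), the 6th highest of 9959 genes. PSAP went from 0.24 without to 0.93 with venetoclax, an interaction of 0.69 (SE 0.14, limma adjusted p = 0.014). For GM2A it was 0.39 (95% interval 0.12 to 0.65, limma adjusted p = 0.095), for GALC 0.32 (0.01 to 0.64, limma adjusted p = 0.22) and for NEU1 0.24 (-0.04 to 0.52, limma adjusted p = 0.28), none of which passed. GLB1 and GLA had 0.04 (-0.28 to 0.36) and -0.04 (-0.28 to 0.20). On the linear scale, the DMSO mean plus both single-drug differences came to 13.5 FPKM for ASAH1 and 82.3 for PSAP, against 26.7 and 131 measured in Comb. The same sum was 20.5 against 27.2 for GM2A, 11.8 against 14.0 for NEU1, 6.60 against 8.34 for GALC, 16.1 against 15.9 for GLA and 19.3 against 19.9 for GLB1. Without the 4 libraries numbered 1 the interaction of GM2A was 0.33 (limma adjusted p = 0.037) and that of GALC 0.47 (limma adjusted p = 0.019), so 4 of 7 passed, in a fit where 10.8% of all genes were higher. With the GC and length trend removed 4 of 7 passed where 6.91% of all genes were higher, and the genes beside ASAH1 and PSAP were then GM2A, at 0.42 (limma adjusted p = 0.014), and NEU1, at 0.33 (limma adjusted p = 0.0064), while GALC had 0.16 (limma adjusted p = 0.23).

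**Figure D3:**
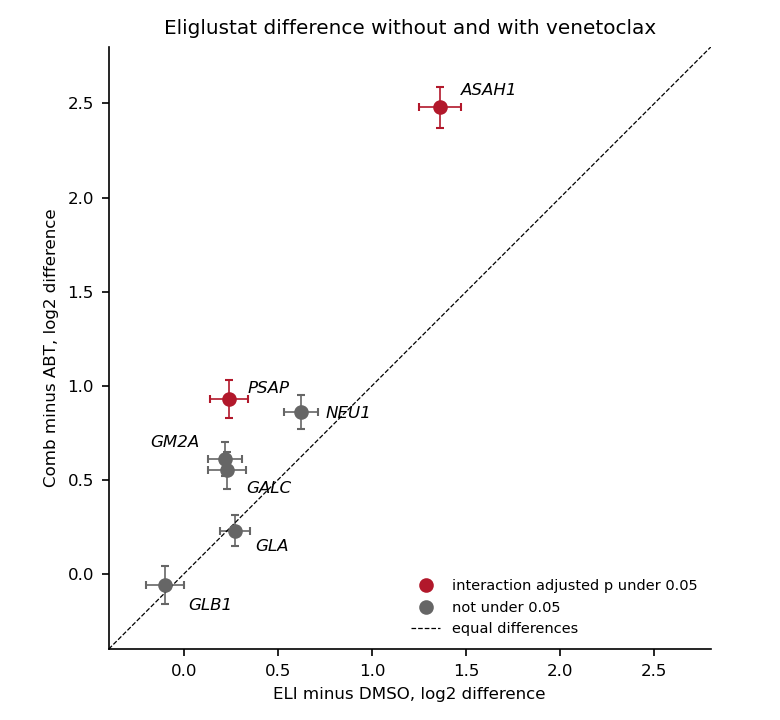
Eliglustat difference without venetoclax (ELI minus DMSO, horizontal) and with it (Comb minus ABT, vertical), both on the log2(FPKM + 1) scale, for the 7 genes tested, with SE bars and a dashed line of equal differences. ASAH1 and PSAP (red, interaction adjusted p under 0.05) lie above the line by 1.12 and 0.69, and GLA and GLB1 lie on it within their SE.

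The rest of the lysosomal sphingolipid pathway changed in part. Of 10 further genes of that breakdown, all tested, 5 rose and 2 fell in Comb against DMSO and 3 did not pass, with a median of 0.22. The same numbers, 5, 2 and 3, held in ELI against DMSO. Of all genes tested 25.7% rose and 25.8% fell in Comb, and 16.4% rose and 19.8% fell in ELI. FUCA1, the lysosomal fucosidase, went from 13.8 ± 1.19 FPKM in DMSO to 17.2 ± 0.198 in ELI and 23.6 ± 1.36 in Comb, rises of 0.30 (limma adjusted p = 0.0080) and 0.73 (limma adjusted p = 7e-06). NAAA, an acid amidase related to acid ceramidase, rose by 0.48 in Comb (limma adjusted p = 0.00018). SCARB2, a protein of the lysosome membrane, differed by -0.07 in Comb (limma adjusted p = 0.47), and by -0.26 with the GC and length trend removed (0.00060). SMPD1, acid sphingomyelinase, fell by 0.26 in Comb (limma adjusted p = 0.037), which did not pass in 10 alternatives, at -0.15 without DMSO replicate 2 (0.14) and -0.12 with the GC and length trend removed (0.073).

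Genes that make or use sphingosine elsewhere were mixed in direction. Of 9 ceramidases, sialidases and glucosidases outside the lysosome 4 were tested, and 1, the alkaline ceramidase ACER3, passed, with 0.43 in Comb (limma adjusted p = 0.014, and 0.13 with 0.090 after removal of the GC and length trend). Of 10 genes of sphingosine and sphingosine-1-phosphate handling 6 were tested, of which 4 rose and 1 fell in Comb (25.7% and 25.8% of all genes) and 0 rose and 2 fell in ELI (16.4% and 19.8%). SPHK1, the kinase that makes sphingosine-1-phosphate, fell from 2.48 ± 0.217 FPKM in DMSO to 1.69 ± 0.119 in ELI and 1.41 ± 0.123 in Comb, differences of -0.37 (limma adjusted p = 0.0017) and -0.53 (limma adjusted p = 6.3e-05). ALDH3A2, an aldehyde dehydrogenase downstream of the lyase SGPL1, rose by 0.35 in Comb (limma adjusted p = 0.0021). SGPL1 and the exporter SPNS2, both at 0.25 in Comb (limma adjusted p = 0.014 and 0.025), did not pass in several alternatives, such as leaving out Comb replicate 1 for SGPL1 (0.055) and Comb replicate 2 for SPNS2 (0.11).

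On the synthesis side, 9 of 16 genes were tested, of which 5 rose and 1 fell in Comb and 3 rose and 1 fell in ELI, with medians of 0.37 and 0.11, where 25.7% of all genes rose and 25.8% fell in Comb and 16.4% and 19.8% did in ELI. A4GALT, which makes globotriaosylceramide, the substrate of GLA, went from 1.09 ± 0.216 FPKM in DMSO and 1.41 ± 0.218 in ELI to 4.15 ± 0.0562 in Comb, a rise of 1.31 (limma adjusted p = 2.1e-07). UGCG rose by 0.77 in ELI (limma adjusted p = 0.0024) and 0.58 in Comb (limma adjusted p = 0.0070). B4GALT5, which makes lactosylceramide, rose by 0.37 in Comb (limma adjusted p = 0.0017). UGT8, which makes galactosylceramide, the substrate of GALC, averaged 0.789 FPKM with vehicle, 0.725 with venetoclax, 1.55 with eliglustat and 1.91 with both drugs. It was under 1 FPKM in every DMSO library and in 2 of 3 ABT libraries, and so passed the filter through the ELI and Comb libraries, which bears on its place among the genes counted as rising. ST3GAL3, a sialyltransferase, fell by 0.63 in Comb (limma adjusted p = 3.2e-05).

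Other parts of the lysosome were read in the same way. Of 30 hydrolases of other substrates 25 were tested, of which 13 rose and 1 fell in Comb (median 0.21) and 11 rose and 2 fell in ELI (median 0.08). Of all genes tested 25.7% rose and 25.8% fell in Comb, against 16.4% and 19.8% in ELI. The cathepsin CTSH rose by 1.24 (limma adjusted p = 3.4e-07) and the mannosidase MANBA by 1.02 (limma adjusted p = 1.2e-06) in Comb, while GUSB, beta-glucuronidase, fell by 0.79 (limma adjusted p = 7.1e-06). DNASE2, an acid nuclease, was at 0.695 ± 0.0950 FPKM with vehicle, 0.729 ± 0.0367 with eliglustat, 0.618 ± 0.133 with venetoclax and 2.55 ± 0.179 with both drugs. It so passed the filter through Comb alone (1.07, limma adjusted p = 3.4e-07), which bears on its place among the genes counted as rising. Of 22 genes of the lysosome membrane, its sterol carriers and enzyme delivery 19 were tested, and 15 rose in Comb and 14 in ELI, with 0 falling, at medians of 0.59 and 0.37. GNPTAB, which makes the mannose-6-phosphate tag, rose by 1.40 (limma adjusted p = 1.3e-05), the sialic acid exporter SLC17A5 by 0.97 (limma adjusted p = 9.3e-07), NPC2, a cholesterol carrier, by 0.77 (limma adjusted p = 1.1e-06) and ATP6V1B2, a subunit of the proton pump, by 0.59 (limma adjusted p = 2.7e-06). Among 4 transcription factors of this family 3 were tested. TFE3 rose by 0.41 (limma adjusted p = 0.0074, and 0.27 without DMSO replicate 1) and TFEC by 0.88 (limma adjusted p = 0.011, and 0.45 with the GC and length trend removed) in Comb. TFEB fell by 0.35 in ELI (limma adjusted p = 0.0027) and by 0.19 in Comb (limma adjusted p = 0.037), the last not passing without DMSO replicate 3 (0.10) or with the trend removed (-0.07, 0.38). MITF was under the filter.

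**Figure D4:**
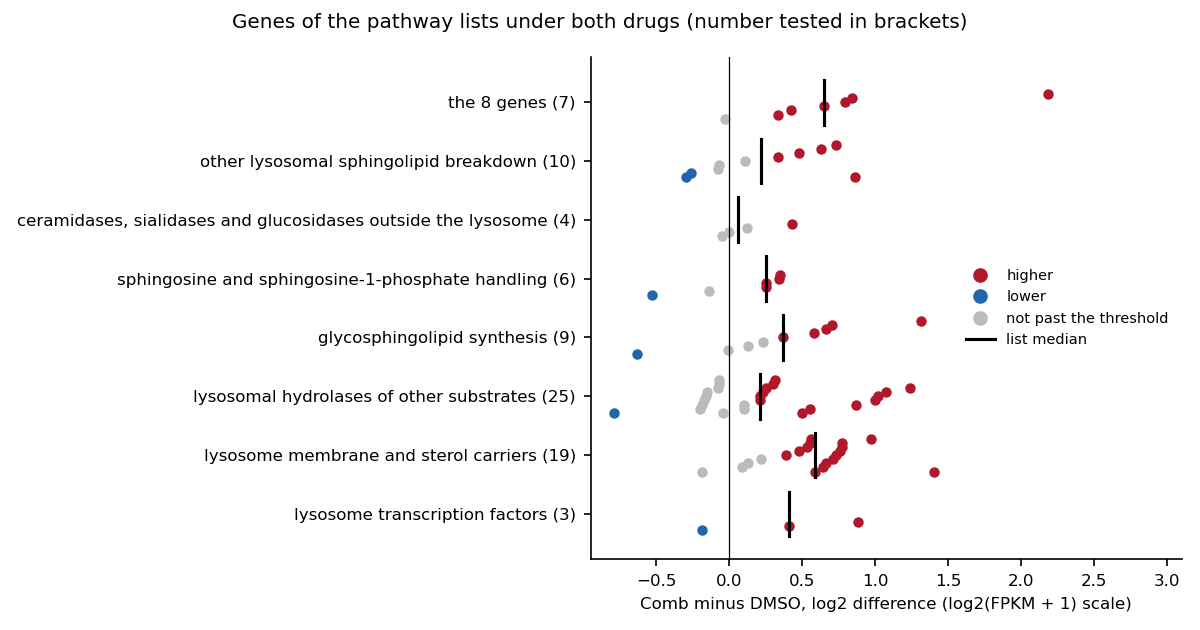
Comb minus DMSO on the log2(FPKM + 1) scale for each tested gene of the 8 and of 7 further lists, as points (red higher, blue lower, grey not past the threshold; vertical spread within a list only separates points), with a black bar at the list median. ASAH1 at 2.18 lies beyond every other gene shown, and the medians run from 0.06 for the enzymes outside the lysosome to 0.65 for the 8 genes.

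The pattern of ASAH1 over the 12 libraries was most like that of RAB31, N4BP2L1, CFLAR, PIWIL4 and WASHC2A, among tested genes that averaged 5 FPKM or more. Their Pearson r with ASAH1 on log2(FPKM + 1) was 0.997, 0.996, 0.995, 0.993 and 0.992, a description over 12 libraries that share 4 treatments. RAB31 stood at 33.4 ± 2.27 FPKM with vehicle, 49.5 ± 0.831 with eliglustat, 29.3 ± 1.21 with venetoclax and 61.7 ± 1.35 with both drugs, the same order of groups as ASAH1. Within the 8 genes the r with ASAH1 was 0.931 for NEU1, 0.924 for GALC, 0.874 for PSAP, 0.841 for GM2A, 0.772 for GLA and -0.361 for GLB1.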

How the data were processed

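The authors deposited 1 table of FPKM values per gene and library, per the file headers; which aligner, counter, build and gene annotation they used was not given in the sources used here. The 12 libraries were grouped by sample title. The 8 genes and all gene lists were chosen with earlier results of these data known. Low FPKM values were whole multiples of 1 step (tolerance 1e-05, then 0.001), so reads were recovered for all 16361 genes above 0, for depth and for the voom alternative only. Symbols, positions, GC content and exon overlaps came from GENCODE 29, and promoter windows from RefSeq (GRCh38.p14); the build of the files was not stated.

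limma 3.58.1 in R 4.3.3, with a mean trend and robust moderation, was fitted to log2(FPKM + 1) of 9959 genes with at least 1 FPKM in 3 or more libraries, as 4 group means over 12 libraries; Benjamini-Hochberg adjustment ran over all genes, with a threshold of 0.05. The script was tested on simulated data. Genes named beyond the 8 were up to 4 a list with the smallest adjusted p in Comb minus DMSO, plus genes fixed by name (UGCG, TFEB, TFE3, MITF, CTSA, SCARB2 and SMPD1 among them), and the 5 most like ASAH1; a few such genes are left out here; CSF1R, TREM2 and other cell markers were listed separately.

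Same-numbered libraries deviated together across genes for DMSO with ELI (r 0.24 to 0.82), DMSO with ABT (0.39 to 0.88) and ELI with ABT (0.26 to 0.74). This was taken as pairing within these 3 groups, though no label says what a replicate number marks. The libraries numbered 1 in DMSO, ELI and ABT also deviated alike along GC content, with a rho of -0.79, -0.70 and -0.70. Pairing and such a shared trend were not told apart. With Comb r was -0.40 to 0.16. The reported fit used no pairing in any group. The block in 9 libraries paired DMSO, ELI and ABT. The block in 12 libraries also put Comb in the same blocks, a pairing that these r do not show. Alternatives were median-of-ratios scaling, no filter, pseudocounts of 0.1 and 0.5, voom, the replicate block, fits of fewer libraries, a loess trend on GC content and length removed (span 0.5), each library left out, and, chosen after seeing the data, reads per kilobase of the longest coding transcript. Under each scaling the median difference of all genes was at most 0.024 from 0.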

Additional observations from a re-analysis of the deposited data

Results flagged for a closer look

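The eliglustat difference was larger with venetoclax than without it for 2 of the 7 genes tested, by limma's test of the interaction on the log2(FPKM + 1) scale. It was also larger for 2 of 10 other breakdown genes, 1 of 9 synthesis genes, 2 of 25 hydrolases of other substrates and 2 of 19 membrane genes tested. The remaining further lists had no such gene. Of all genes tested 1.68% were higher. For ASAH1 the gap was 1.12 (limma adjusted p = 0.0012). For PSAP it was 0.69 (limma adjusted p = 0.014). DNASE2 had 1.11 (limma adjusted p = 0.00010), where its level in DMSO, ELI and ABT lay under 1 FPKM. It passed the filter through Comb alone, the group where it is high, so its place among these genes is no separate support. A4GALT had 0.70 (limma adjusted p = 0.0052), FUCA1 0.61 (limma adjusted p = 0.0039) and SLC17A5 0.51 (limma adjusted p = 0.015, and 0.054 without Comb replicate 3). MANBA had 0.55 (limma adjusted p = 0.017, and 0.051 to 0.056 without ELI replicate 3, ABT replicate 2, Comb replicate 1 or Comb replicate 2). GNPTAB had 0.86 (limma adjusted p = 0.034) and SCARB2 0.45 (limma adjusted p = 0.045), and both fell short when any of 7 or more single libraries was left out, with limma adjusted p up to 0.097 and 0.12. SCARB2 differed from DMSO by -0.23 in ELI (limma adjusted p = 0.049, not passing in 14 of 24 alternatives) and by -0.07 in Comb (-0.26 with the GC and length trend removed, limma adjusted p = 0.00060). The causes were not tested.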

How the results depend on the processing

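For the 7 genes tested, 1141 alternative values were computed over the 7 comparisons: 1092 stayed on the same side of the threshold, 41 passed where the reported value did not, and 8 did not pass where it did. The sign differed from the reported value in 26, with neither value past the threshold. The count of the 8 genes past the threshold in ELI minus DMSO was 3, where 16.4% of all genes rose. It was 5 with the replicate block (22.8% of all genes rose) and without the 4 libraries numbered 1 (29.9%). It was also 5 with the GC and length trend removed, alone (21.0%) or with the block (22.9%), and 6 with the block in 9 libraries (27.2%). In the 6 libraries compared it was 2 (8.94%). In ABT minus DMSO it was 0, where 0.151% of all genes were called. It was 1 with the block in 9 libraries (ASAH1), where 23.6% of all genes were called. With the trend removed and the block it was also 1 (PSAP, -0.20, limma adjusted p = 0.021), where 12.1% were called. In Comb minus ELI it was 3, where 3.03% of all genes were higher. It was 5 with the trend removed, alone or with the block (NEU1 and GALC added), where 12.1% and 14.5% of all genes were higher. For the interaction it was 2, where 1.68% of all genes were higher. It was 4 without the libraries numbered 1 (GM2A and GALC added), where 10.8% were higher. With the trend removed, alone or with the block, it was also 4 (GM2A and NEU1 added), where 6.91% and 9.36% were higher. GM2A passed with the block in 12 libraries (limma adjusted p = 0.046), where 3.87% were higher. With each library left out in turn, these counts ran from 2 to 5 in ELI minus DMSO, where 10.3% to 30.2% of all genes rose. They were 0 to 0 in ABT minus DMSO (0.0301% to 9.35% of all genes called) and 6 to 6 in Comb minus DMSO (19.2% to 34.3% higher). In Comb minus ABT they were 5 to 6 (30.2% to 38.6% higher) and in Comb minus ELI 3 to 3 (1.5% to 5.66%). ELI minus ABT gave 4 to 6 (24.3% to 37.0% higher) and the interaction 2 to 3 (0.733% to 4.17%). For the further lists in ELI minus DMSO, the count past the threshold among other breakdown genes was 7 and became 3 in the 6 libraries compared (5 to 7 with a library left out). Among enzymes outside the lysosome it was 1, became 0 without a filter, in the 6 libraries and with the trend removed, alone or with the block, and 2 without the libraries numbered 1 (0 to 2). For sphingosine handling it was 2, and 1 in the 6 libraries (1 to 3), for hydrolases of other substrates 13, and 8 in the 6 libraries (9 to 14), and for transcription factors 1, and 2 with the block in 9 libraries, without the libraries numbered 1 and with the trend removed, alone or with the block (1 to 2). Synthesis genes gave 3 to 4 and membrane genes 12 to 15 with a library left out. Of all genes tested 36.1% were called in the reported fit of ELI minus DMSO, 20.0% in the 6 libraries and 22.1% without a filter. It was 47.2% with the trend removed, 51.2% with the block as well, 53.0% with the block in 9 libraries and 56.0% without the libraries numbered 1. With a library left out it was 23.0% to 59.0%. In Comb minus DMSO, enzymes outside the lysosome went from 1 to 0 with the trend removed (0 to 1), and sphingosine handling from 5 to 3 in the 6 libraries (3 to 5). The other lists there gave 5 to 7 for other breakdown, 6 to 7 for synthesis, 12 to 18 for hydrolases, 15 to 17 for membrane genes and 2 to 3 for transcription factors. Of all genes tested 51.5% were called in Comb minus DMSO in the reported fit, 42.1% in the 6 libraries and 60.4% with the trend removed. With a library left out it was 41.0% to 66.2%. On voom's scale, which has no pseudocount of 1 FPKM, Comb minus DMSO was -0.81 for SPHK1, -0.99 for ST3GAL3 and 1.87 for DNASE2. Other causes were not tested. Intervals and read totals cover neither differences between cultures nor the unknown doses, and HEXA, with 178 to 257 reads a library, was not tested in the reported fit.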
